A study of Homo sapiens with 6 samples.

Results

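Histone-modifying enzymes are described here as 73 genes out of the 31966 in the count table: 21 lysine methyltransferases, 16 lysine demethylases, 10 acetyltransferases, 18 deacetylases and 8 arginine methyltransferases. They were chosen by name, not by any measured value. The numbered KMT, KDM, SETD, HDAC, SIRT, KAT and PRMT genes were taken, except KDM5D and KDM8, together with CREBBP, EP300, DOT1L, EHMT1, EHMT2, SETDB1 and CARM1. Enzymes with other names, such as the EZH, SUV39H, NSD and SMYD genes, fall outside that choice and were read as separate lists. RNA came from Kasumi-1 cells, a cell line of acute myeloid leukaemia known for its RUNX1-RUNX1T1 fusion. FBL knockdown samples (n = 3) expressed a doxycycline-inducible short hairpin RNA against FBL, and control samples (n = 3) the same kind of construct against luciferase. Every sample, controls included, received 100 ng/ml doxycycline for 72 h. Only 1 hairpin per gene is labelled, and the labels do not say whether the replicates were separate cultures, so the spread behind each p-value may be technical.

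Histone-modifying enzymes add or remove small groups on histones. Lysine methyltransferases and demethylases set marks such as H3K4 and H3K9 methylation, which are found at active promoters and in silent chromatin. Acetyltransferases and deacetylases set the acetylation that goes with open chromatin, and arginine methyltransferases act on histones as well as on many RNA-binding proteins. In leukaemias with the RUNX1-RUNX1T1 fusion, the fusion protein is known to recruit deacetylases through the NCoR and SMRT corepressors, and PRMT1 and EP300 are known to modify the fusion protein itself. FBL encodes fibrillarin, which methylates ribosomal RNA at the 2'-hydroxyl under the guidance of box C/D small nucleolar RNAs. Fibrillarin is also known to methylate a glutamine of histone H2A, and its glycine- and arginine-rich region is a known substrate of PRMT1.

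FBL itself had 54.0, 32.4 and 44.9 CPM (counts relative to a library total scaled by TMM, the trimmed mean of M values) in FBL knockdown libraries and 580, 550 and 544 CPM in control libraries, which was 12.7-fold lower (log2 fold change -3.67 ± 0.16 SE, adjusted p = 3.93e-06 by edgeR's quasi-likelihood test with Benjamini-Hochberg adjustment). Total counts ranged from 85556322 to 95023102 in FBL knockdown and from 88541034 to 103148412 in control. Mitochondrial transcripts took 14.7% to 18.8% of counts in FBL knockdown libraries and 12.4% to 15.2% in control libraries. The first principal component of log2 CPM separated the groups and accounted for 60.04% of the variance. The second accounted for 17.9% and ran from control replicate 1 (-24.9) to FBL knockdown replicate 1 (17.7) and control replicate 2 (30.4). FBL knockdown replicate 1 and control replicate 2 had the highest mean transcript GC content weighted by count (54.3% and 54.5%), and control replicate 1 the lowest (53.5%). Of 12 myeloid marker genes, 11 averaged over 1 CPM. They summed to 7323 to 8493 CPM in FBL knockdown and 8676 to 11310 CPM in control. Of 5 B-cell markers, 4 were in the table, none at 0, and their sum was 10.4 to 11.8 CPM in FBL knockdown against 4.79 to 5.50 CPM in control; CD79A and PAX5, both known to be expressed in leukaemias with this fusion, made up the members over 1 CPM. The part of this shift in the results was not tested. Marker lists of T cells, erythroid cells, epithelium and fibroblasts each summed to at most 0.430 CPM in any library.

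More histone-modifying enzymes were lower than higher after FBL knockdown. Of the 73 members, 72 passed the filter on low counts, and 27 of them passed an adjusted p of 0.05, or 37.5%, against 32.8% of all 18486 genes tested. By direction, 6 members were higher (8.33%, against 15.8% of all genes) and 21 were lower (29.2%, against 17.0% of all genes). The overall share of calls among the members was thus near that of the whole table, and the balance of directions was not. In the whole table, 2920 genes were higher and 3141 lower, a split that moved to 3597 higher and 2528 lower under upper-quartile scaling; the members' own counts under that scaling were 6 and 18. The 6061 calls in all became 3923 without FBL knockdown replicate 2 and 4017 without FBL knockdown replicate 3. The members gave 5 higher and 17 lower without the second of the knockdown libraries, and 5 higher and 16 lower without the third. Leaving out a library at either end of the second component gave 6 higher and 21 lower members (without FBL knockdown replicate 1), 8 higher and 22 lower (without control replicate 2) or 8 higher and 23 lower (without control replicate 1). Of all genes, 15.2%, 17.5% and 14.9% were higher and 14.7%, 19.4% and 16.3% lower in these 3 fits, in the same order.

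The changes were small. The median log2 fold change over the 72 tested members was -0.15, against -0.01 over all tested genes, and 52 members had a negative value. Fitted changes ran from -0.88 to 1.48, and only 1 member past the threshold, KAT2B, changed at least 2-fold. Among the 72 tested members, the CPM values of the groups did not overlap for 8 that were higher and 22 that were lower. Of all 18486 tested genes, 4079 were higher and 4272 lower without overlap, or 45.2% in either direction. Genes of higher abundance were more often called lower, so the members were also set against genes of like abundance. Between 10 and 100 CPM, 13 of 32 members (40.6%) were lower, against 27.7% of all genes in that range, and 1 of 32 was higher, against 17.0%. Between 1 and 10 CPM, 4 of 26 members were lower, against 14.3% of all genes, and 3 were higher (11.5%), against 17.3%. At 100 CPM and above, 4 of 11 were lower, against 27.8% of all genes, and 2 of 11 were higher (18.2%), against 13.6%. The shares by class and by list given below are set against all tested genes, not genes of like abundance. Because these samples are bulk RNA, fewer cells of a type and less RNA per cell cannot be told apart.

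**Figure D1:**
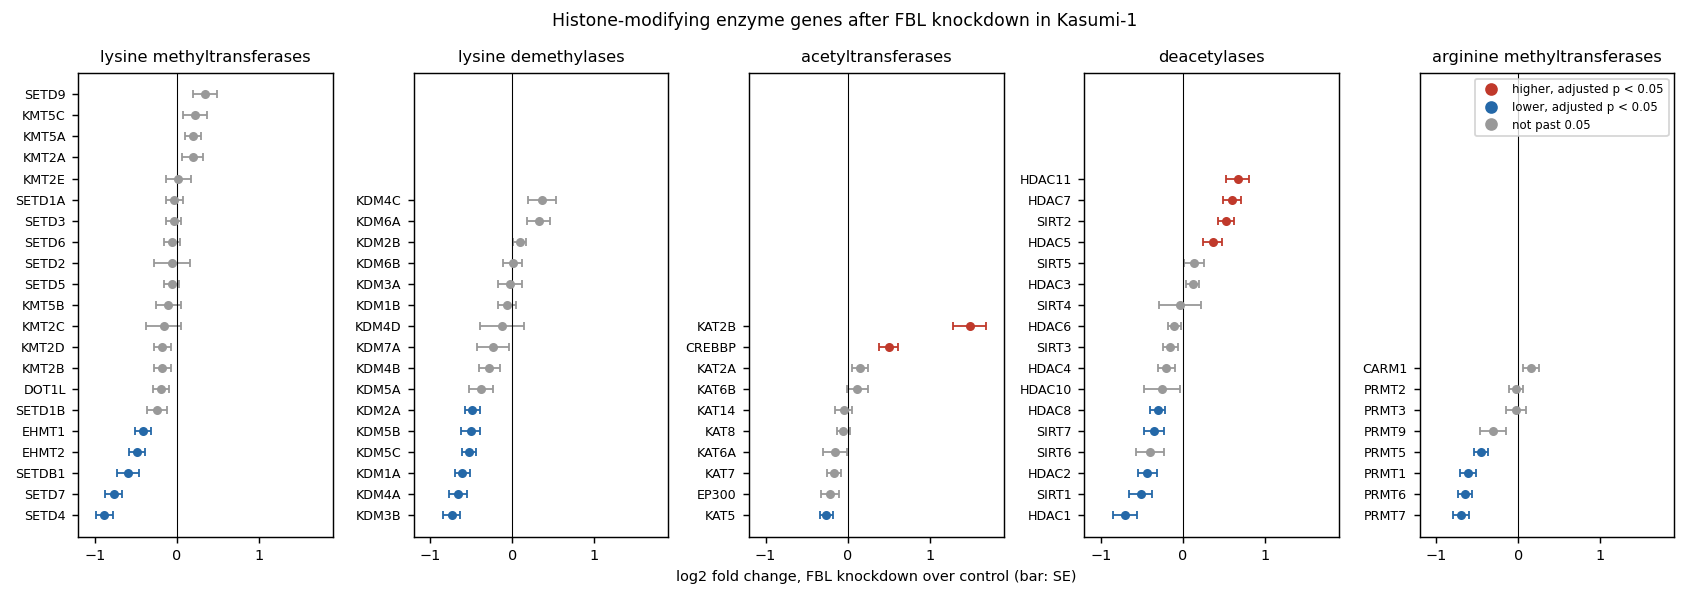
Fitted log2 fold change of FBL knockdown over control for each of the 72 tested members, by enzyme class (x axis, log2 scale; 1 row per gene). Bars are the SE of the fit, red marks members higher and blue members lower at an adjusted p under 0.05, and grey the rest; lysine methyltransferases, demethylases and arginine methyltransferases have 0 red points, and KAT2B at 1.48 lies furthest from 0.

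Of 21 lysine methyltransferases, all tested, 5 were lower (23.8%, against 17.0% of all genes) and 0 higher (against 15.8%), with a median log2 fold change of -0.11; the other 16 lay between -0.25 and 0.34. The 5 were SETD4, SETD7, SETDB1, EHMT2 and EHMT1. The 3 that write H3K9 methylation were all among them, while 1 of 7 that write H3K4 methylation was.

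SETD4, a SET-domain protein (chr21:36034541-36079389, minus strand, GRCh38), had 4.37, 4.67 and 4.22 CPM in FBL knockdown and 8.31, 7.83 and 8.33 CPM in control. The groups did not overlap, and each knockdown library lay far below each control library. The fall was 1.84-fold (log2 fold change -0.88 ± 0.10 SE, edgeR adjusted p = 0.000138). SETD7, which monomethylates H3K4 and several proteins other than histones, had 8.96, 8.76 and 9.18 CPM in FBL knockdown and 16.0, 13.3 and 16.6 CPM in control. Here too the groups were apart, and the fall was 1.71-fold (-0.77 ± 0.11 SE, edgeR adjusted p = 0.000388).

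The 3 H3K9 methyltransferases among the members each fell. EHMT2, known as G9a, and EHMT1, known as GLP, form the dimer that writes H3K9 mono- and dimethylation in euchromatin. EHMT2 (chr6:31879759-31897687, minus strand) had 166, 137 and 141 CPM in FBL knockdown and 193, 222 and 205 CPM in control. EHMT1 had 61.7, 54.998 and 51.2 CPM in FBL knockdown and 75.6, 80.0 and 68.6 CPM in control. Neither gene's groups overlapped, and the highest knockdown value of EHMT2 was in replicate 1. EHMT2 fell 1.40-fold (-0.48 ± 0.10 SE, edgeR adjusted p = 0.00343) and EHMT1 1.34-fold (-0.42 ± 0.10 SE, edgeR adjusted p = 0.00719); without FBL knockdown replicate 3 the value of EHMT1 was -0.33 (edgeR adjusted p = 0.0703). Because the partners fell alike, the EHMT1 to EHMT2 ratio of RPKM (counts scaled by gene length and library total) was 0.122, 0.132 and 0.119 in FBL knockdown and 0.128, 0.118 and 0.110 in control, which overlap. SETDB1, which writes H3K9 trimethylation at retroelements, had 7.06, 8.11 and 7.77 CPM in FBL knockdown and 14.0, 10.2 and 10.5 CPM in control (1.51-fold lower, -0.60 ± 0.13 SE, edgeR adjusted p = 0.00616). Its groups did not overlap, and control replicate 1 was the highest. The antisense gene EHMT2-AS1, with counts equal to 7.64% of those of EHMT2, was also lower (-0.47), and CERS2, which overlaps SETDB1 on the other strand and has far more counts, did not pass the test (0.21). The strand setting of the counting is not given, so reads in such overlaps cannot be told apart.

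The H3K4 methyltransferases of the COMPASS type were not past the threshold. KMT2A (MLL), the gene at the breakpoint of many other leukaemias, had 4.96, 6.36 and 6.003 CPM in FBL knockdown and 5.44, 4.64 and 5.11 CPM in control, which overlap (0.19 ± 0.12 SE, edgeR adjusted p = 0.269). Per length, KMT2D stood far above its paralogue: KMT2D averaged 7.43 RPKM in FBL knockdown and 8.43 RPKM in control, and KMT2C 0.0671 RPKM in FBL knockdown and 0.0756 RPKM in control. Of the other COMPASS enzymes, SETD1A averaged 8.07 RPKM in FBL knockdown and 8.28 RPKM in control, and SETD1B 3.36 RPKM in FBL knockdown and 3.996 RPKM in control. DOT1L, the H3K79 methyltransferase, had 126, 107 and 111 CPM in FBL knockdown and 122, 146 and 127 CPM in control. The range of DOT1L in FBL knockdown reached into that of control (-0.20 ± 0.10 SE, edgeR adjusted p = 0.147). AP3D1 and PLEKHJ1 overlap DOT1L on the other strand, with counts equal to 139% and 126% of those of DOT1L. AP3D1 was lower (-0.37) and PLEKHJ1 did not pass the test (-0.07), and reads in these overlaps cannot be told apart. SETD2, which trimethylates H3K36, had 2.77, 3.26 and 2.80 CPM in FBL knockdown and 3.421, 1.904 and 3.896 CPM in control. Its control libraries spread on either side of the knockdown values (-0.06 ± 0.22 SE, edgeR adjusted p = 0.850), and the sign turned without control replicate 1 (0.01) or control replicate 3 (0.14). KMT2B, the H4K20 methyltransferases KMT5A, KMT5B and KMT5C, KMT2E, which has no known methyltransferase activity, and SETD3, SETD5, SETD6 and SETD9 did not pass either.

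Among methyltransferases and partners outside the member list, 2 of 15 other histone methyltransferases were higher (13.3%, against 15.8% of all genes) and 2 lower (13.3%, against 17.0%), with a median of -0.08. SETDB2, an H3K9 enzyme, was 1.63-fold higher (0.71 ± 0.18 SE) and SMYD2 1.33-fold higher (0.42 ± 0.10 SE), while SUV39H1, an H3K9 trimethylase, was 1.24-fold lower (-0.32 ± 0.09 SE) and NSD1, an H3K36 dimethylase, 1.22-fold lower (-0.29 ± 0.09 SE). Each of these was called in all 6 libraries together but not in some subsets. SETDB2 missed the threshold without FBL knockdown replicate 2 (adjusted p = 0.0672) or 3 (adjusted p = 0.0584) in edgeR, SMYD2 without control replicate 3 (adjusted p = 0.0531), and SUV39H1 without FBL knockdown replicate 2, 3 or control replicate 3 (edgeR adjusted p = 0.0745 to 0.117). NSD1 missed it under 12 of 18 other settings, including the omission of any library but control replicate 1 (edgeR adjusted p = 0.0577 to 0.150). Of 13 genes listed with COMPASS, BPTF and PSIP1 among them, 0 were higher (against 15.8% of all genes). The 5 lower ones (38.5%, against 17.0%) were WDR5, ASH2L, RBBP5, WDR82 and CXXC1, and the median was -0.24. CXXC1, which brings SETD1 complexes to CpG islands, was 1.64-fold lower (-0.72 ± 0.11 SE, edgeR adjusted p = 0.000919), and RBBP5, a core subunit, 1.44-fold lower (-0.52 ± 0.13 SE, edgeR adjusted p = 0.00918). Of 7 MLLT and AFF genes read beside DOT1L, 6 were tested and 2 were lower (33.3%, against 17.0% of all genes). These were AFF1 (-0.33 ± 0.11 SE) and MLLT11 (-0.30 ± 0.09 SE), while MLLT1, MLLT3, MLLT6 and MLLT10 were not called. AFF1 missed the threshold under 12 of 18 settings and MLLT11 under 8. Control replicate 2 was the only library whose omission kept the call of AFF1. The omission of FBL knockdown replicate 1 or 3 or of control replicate 1 or 3 ended that of MLLT11 (edgeR adjusted p = 0.0561 to 0.138 over these omissions for the pair).

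Of 16 lysine demethylases, all tested, 6 were lower (37.5%, against 17.0% of all genes) and 0 higher (against 15.8%), with a median log2 fold change of -0.26, and 3 of the 5 H3K4 demethylases were among the lower ones. The 6 were KDM3B, KDM4A, KDM1A, KDM5C, KDM5B and KDM2A, and each kept its call under all 18 other settings tried.

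KDM1A (LSD1), the flavin-dependent H3K4 demethylase of the CoREST complex (chr1:23019443-23083689, plus strand), had 57.5, 56.6 and 59.4 CPM in FBL knockdown and 99.1, 81.8 and 83.7 CPM in control. The knockdown libraries lay close together, all below the lowest control library, and the fall was 1.53-fold (-0.61 ± 0.09 SE, edgeR adjusted p = 0.000677). KDM5C and KDM5B remove H3K4 di- and trimethylation. KDM5C had 115, 99.5 and 106 CPM in FBL knockdown and 163, 154 and 146 CPM in control (1.44-fold lower, -0.53 ± 0.09 SE, edgeR adjusted p = 0.00104). KDM5B had 31.2, 34.3 and 33.2 CPM in FBL knockdown and 54.9, 39.3 and 45.8 CPM in control (1.42-fold lower, -0.50 ± 0.12 SE, edgeR adjusted p = 0.00737). Both genes were lower in every knockdown library than in any control library. KDM5A, their relative, had 1.80, 2.07 and 2.30 CPM in FBL knockdown and 2.84, 2.28 and 2.93 CPM in control; the groups just overlap (-0.38 ± 0.15 SE, edgeR adjusted p = 0.0709, and -0.49 with an adjusted p of 0.0116 without control replicate 2). Per length, KDM5C at 12.2 RPKM in FBL knockdown and 17.7 RPKM in control stood far above KDM5A at 0.170 RPKM in FBL knockdown and 0.222 RPKM in control.

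The H3K9 and H3K36 demethylases split by gene. KDM3B, which removes H3K9 mono- and dimethylation (chr5:138352596-138437028, plus strand), had 9.09, 9.40 and 9.50 CPM in FBL knockdown and 17.8, 14.7 and 14.2 CPM in control. Its groups were well apart, and the fall was 1.67-fold (-0.74 ± 0.11 SE, edgeR adjusted p = 0.000520). Its relative KDM3A had 4.66 to 5.77 CPM in FBL knockdown and 4.24 to 6.14 CPM in control, which overlap. KDM4A, which removes trimethylation of H3K9 and H3K36, had 14.0, 12.1 and 12.7 CPM in FBL knockdown and 23.9, 19.0 and 18.6 CPM in control (1.58-fold lower, -0.66 ± 0.12 SE, edgeR adjusted p = 0.00155). KDM4A-AS1, an antisense gene with counts equal to 23.8% of those of KDM4A, was lower too (-0.49). KDM4B had 62.1, 51.8 and 53.1 CPM in FBL knockdown and 58.4, 82.3 and 62.5 CPM in control, and its groups overlapped (-0.28 ± 0.13 SE, edgeR adjusted p = 0.118, and -0.38 with an adjusted p of 0.0347 without control replicate 1). KDM2A, an H3K36 demethylase that binds unmethylated CpG, had 49.3, 46.1 and 44.5 CPM in FBL knockdown and 71.8, 62.4 and 62.0 CPM in control (1.40-fold lower, -0.49 ± 0.09 SE, edgeR adjusted p = 0.00209). Its relative KDM2B had 48.8 to 53.8 CPM in FBL knockdown and 46.8 to 49.5 CPM in control. KDM2A thus lay apart between the groups, and KDM2B did not.

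The H3K27 demethylases did not pass. KDM6A (UTX), a tumour suppressor in myeloid leukaemia, had 5.19, 6.75 and 6.19 CPM in FBL knockdown and 5.43, 4.10 and 5.01 CPM in control. Its groups overlapped through FBL knockdown replicate 1 and control replicate 1 (0.32 ± 0.14 SE, edgeR adjusted p = 0.1002), and the adjusted p was 0.0499 without the first of these and 0.0456 without the second. KDM1B, KDM4C and KDM7A, demethylases of H3K4, of H3K9 and H3K36, and of H3K9 and H3K27, did not pass either. KDM6B had 10.4 to 12.4 CPM in FBL knockdown and 10.3 to 12.6 CPM in control. KDM4D was the lowest demethylase by CPM, at 0.350 to 0.445 CPM in FBL knockdown and 0.316 to 0.584 CPM in control. Of 9 other JmjC proteins outside the member list, 1 was higher and 5 lower (55.6%, against 17.0% of all genes; median -0.37). The higher one, HR, was under 1 CPM, and the lower ones were PHF8, KDM8, RIOX1, JMJD6 and JARID2. JMJD6, a JmjC hydroxylase, was 1.53-fold lower (-0.62 ± 0.09 SE, edgeR adjusted p = 0.000629), and JARID2, a PRC2 partner without demethylase activity, 1.496-fold lower (-0.58 ± 0.10 SE, edgeR adjusted p = 0.00139).

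Acetyltransferases held the largest single change among the called members. Of 10 members, all tested, 2 were higher (20%, against 15.8% of all genes), 1 was lower (10%, against 17.0%), and the median log2 fold change was -0.05. KAT2B and CREBBP rose, and each belongs to a pair of close relatives of which the other did not pass the test.

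KAT2B (PCAF), an acetyltransferase of SAGA-type complexes (chr3:20040023-20154404, plus strand), had 1.41, 2.12 and 2.00 CPM in FBL knockdown and 0.772, 0.625 and 0.583 CPM in control. Every knockdown library was above every control library, and the rise was 2.80-fold (1.48 ± 0.20 SE, edgeR adjusted p = 0.000372). KAT2A (GCN5), its paralogue, had 238, 201 and 220 CPM in FBL knockdown and 179, 218 and 194 CPM in control, which overlap (0.16 ± 0.10 SE, edgeR adjusted p = 0.250). Per length, KAT2A averaged 58.1 RPKM in FBL knockdown and 52.4 RPKM in control, and KAT2B 0.326 RPKM in FBL knockdown and 0.117 RPKM in control. KAT2A was 252, 141 and 164 times KAT2B in the knockdown libraries and 347, 521 and 497 times in the control libraries. KAT2B therefore remained the minor paralogue in all 6 libraries.

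The promoters of this pair are shown because the paralogues differ both in level and in response. They are the 300 bases of GRCh38.p14 from 250 before to 50 after the RefSeq start, 5′ to 3′ on the gene's strand. HDAC1 and HDAC7, deacetylase genes of opposite direction described further on, are given beside them. The KAT2B and HDAC7 windows lie inside the genes as annotated by GENCODE, downstream of their 5′ ends at 20040023 and 47833132. Which start is used in these cells was not tested. Capitals mark GC boxes (GGGCGG or its reverse complement CCGCCC) and CCAAT boxes (CCAAT or ATTGG); adjoining boxes may share bases.
KAT2B, chr3:20040196-20040495, plus strand: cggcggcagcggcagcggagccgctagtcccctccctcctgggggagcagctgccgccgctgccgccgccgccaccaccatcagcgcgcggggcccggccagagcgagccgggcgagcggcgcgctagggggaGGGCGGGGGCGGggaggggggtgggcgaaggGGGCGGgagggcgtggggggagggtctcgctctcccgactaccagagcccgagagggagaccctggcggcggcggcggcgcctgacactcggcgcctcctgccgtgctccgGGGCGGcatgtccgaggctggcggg
KAT2A, chr17:42121318-42121617, minus strand: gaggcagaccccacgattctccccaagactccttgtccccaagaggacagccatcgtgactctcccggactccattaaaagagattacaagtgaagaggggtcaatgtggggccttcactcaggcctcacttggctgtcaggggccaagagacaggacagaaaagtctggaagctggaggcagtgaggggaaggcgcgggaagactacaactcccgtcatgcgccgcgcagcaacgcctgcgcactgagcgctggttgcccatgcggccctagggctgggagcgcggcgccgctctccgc
HDAC1, chr1:32291833-32292132, plus strand: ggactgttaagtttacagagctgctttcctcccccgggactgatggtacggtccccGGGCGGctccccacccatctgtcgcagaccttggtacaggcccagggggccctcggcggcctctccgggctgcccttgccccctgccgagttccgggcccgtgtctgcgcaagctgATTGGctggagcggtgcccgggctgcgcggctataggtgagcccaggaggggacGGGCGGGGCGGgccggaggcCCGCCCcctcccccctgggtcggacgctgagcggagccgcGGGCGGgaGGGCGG
HDAC7, chr12:47819854-47820153, minus strand: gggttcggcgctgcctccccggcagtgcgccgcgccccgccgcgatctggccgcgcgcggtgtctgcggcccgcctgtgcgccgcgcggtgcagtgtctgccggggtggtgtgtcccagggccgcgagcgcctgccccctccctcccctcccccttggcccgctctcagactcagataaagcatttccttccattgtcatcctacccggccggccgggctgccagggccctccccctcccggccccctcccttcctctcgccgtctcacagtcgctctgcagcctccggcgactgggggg
The KAT2B window is 80.3% GC with 4 GC boxes, the KAT2A window 62.0% GC with 0 boxes, the HDAC1 window 73.7% GC with 6 GC boxes and 1 CCAAT box, and the HDAC7 window 74.7% GC with 0 boxes; the median over 34961 RefSeq windows is 58.7% GC. A RefSeq window was found for 67 of the 73 members, some with several, for 101 windows in all. GC boxes were in 68.3% of the members' windows and 45.03% of all windows. Counted by gene, they were in 51 of 67 members with a window, in 12 of 20 that were lower and in 3 of 5 that were higher. CCAAT boxes were in 28.7% of the members' windows against 34.6% of all. The E-box CACGTG, which MYC and other bHLH factors bind, was in 12.9% against 7.27%, the RUNX core TGTGGT or its reverse ACCACA in 9.90% against 13.1%, and the E2F word GGCGGGAA or its reverse TTCCCGCC in 5.94% against 3.17%. These shares describe letters in the windows only.

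CREBBP (CBP), which acetylates H3K27 at enhancers together with EP300 (chr16:3725054-3880726, minus strand), had 7.88, 8.28 and 8.38 CPM in FBL knockdown and 6.57, 5.11 and 5.69 CPM in control. The groups did not overlap, and the rise was 1.41-fold (0.50 ± 0.11 SE, edgeR adjusted p = 0.00677). EP300 (p300) had 9.57, 8.83 and 10.1 CPM in FBL knockdown and 12.4, 10.2 and 10.4 CPM in control. Its values were lower in every knockdown library, by a margin that did not pass the test (-0.21 ± 0.11 SE, edgeR adjusted p = 0.157). The CREBBP to EP300 ratio of RPKM was 0.665, 0.756 and 0.671 in FBL knockdown and 0.427, 0.405 and 0.439 in control, so the ratio was higher in every knockdown library while EP300 was the higher of the pair by RPKM in all 6.

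The MYST acetyltransferases held 1 call among 5, a lower one (20%, against 17.0% of all genes). KAT5 (TIP60), the catalytic subunit of the NuA4 complex, had 89.4, 81.9 and 84.6 CPM in FBL knockdown and 99.6, 104.0 and 102.6 CPM in control. The groups did not overlap, but the fall was small at 1.20-fold (-0.26 ± 0.08 SE, edgeR adjusted p = 0.0249). It missed the threshold under 6 of 18 settings, among them the omission of FBL knockdown replicate 2 (adjusted p = 0.0971), FBL knockdown replicate 3 (0.156) or control replicate 3 (0.0944) in edgeR. KAT5 overlaps RNASEH2C on the other strand, which has more counts and did not pass the test (-0.08). KAT6A (MOZ), itself a fusion partner in leukaemia, had 3.11, 3.35 and 3.41 CPM in FBL knockdown and 4.28, 2.97 and 3.72 CPM in control, which overlap (-0.15 ± 0.14 SE, edgeR adjusted p = 0.453). KAT7 (HBO1) had 50.8, 54.7 and 51.4 CPM in FBL knockdown and 62.4, 54.2 and 58.8 CPM in control (-0.16 ± 0.08 SE, edgeR adjusted p = 0.171). KAT6B, KAT8 and KAT14 did not pass.

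Partners of the acetyltransferases moved in both directions. Of 40 genes listed as complex subunits, 6 were higher (15%, against 15.8% of all genes) and 11 lower (27.5%, against 17.0%), with a median of -0.03. The list also holds ING1 and ING2, which are known from the SIN3 deacetylase complex. MRGBP, a NuA4 subunit, had 36.9, 30.7 and 30.1 CPM in FBL knockdown and 72.2, 74.5 and 67.9 CPM in control, a 2.20-fold fall (-1.14 ± 0.10 SE, edgeR adjusted p = 3.68e-05), and ING2, a reader of H3K4 trimethylation, was 1.72-fold lower (-0.78 ± 0.16 SE, edgeR adjusted p = 0.00331). MEAF6, a subunit of MYST complexes, was 1.41-fold higher (0.49 ± 0.09 SE, edgeR adjusted p = 0.00230), and ZZZ3, of the ATAC complex, 1.46-fold higher (0.55 ± 0.15 SE, edgeR adjusted p = 0.0191), a call that ended without FBL knockdown replicate 2 (edgeR adjusted p = 0.0893) or 3 (0.0755). Of 9 other histone acetyltransferases, 2 were higher and 2 lower (22.2% each, against 15.8% and 17.0% of all genes; median -0.07). NCOA1, a nuclear receptor coactivator, was 1.83-fold higher (0.87 ± 0.16 SE, edgeR adjusted p = 0.00242), and GTF3C4, of transcription factor IIIC, 1.58-fold lower (-0.66 ± 0.09 SE, edgeR adjusted p = 0.000440). CLOCK (0.47 ± 0.15 SE) and TAF1 (-0.59 ± 0.17 SE) also passed. The call of CLOCK ended without FBL knockdown replicate 2 or 3 or control replicate 2 or 3 (edgeR adjusted p = 0.0602 to 0.124), and that of TAF1 without any knockdown library or control replicate 3 (edgeR adjusted p = 0.0554 to 0.0924).

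**Figure D2:**
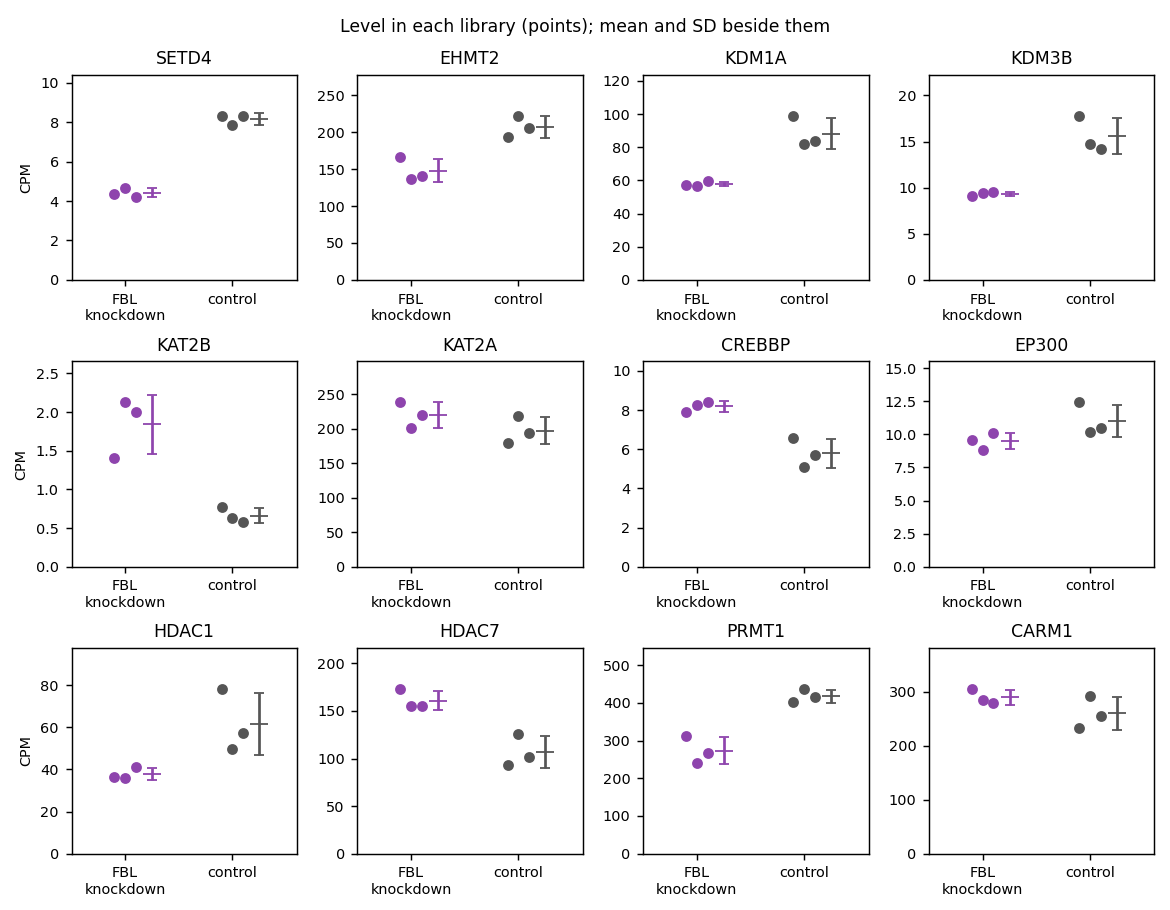
CPM of 12 members in each library (points), with FBL knockdown left of control and the mean and SD beside the points (n = 3 each, linear axes from 0). SETD4, EHMT2, KDM1A, KDM3B, HDAC1 and PRMT1 lie lower and KAT2B, CREBBP and HDAC7 higher in all knockdown libraries than in any control library; KAT2A and CARM1 overlap, and EP300 does not overlap but did not pass the test.

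Deacetylases passed the test in both directions. Of 18 members, 17 were tested, 4 were higher (23.5%, against 15.8% of all genes) and 5 lower (29.4%, against 17.0%), with a median log2 fold change of -0.15. HDAC9 was not tested: it had counts of 1, 1 and 1 in FBL knockdown and 0, 0 and 0 in control. Among class I enzymes 3 of 4 were lower, among the 3 tested class IIa enzymes 2 were higher, and of 7 sirtuins 1 was higher and 2 lower.

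HDAC1 and HDAC2 are the catalytic subunits of the SIN3, NuRD and CoREST complexes. HDAC1 (chr1:32292086-32333635, plus strand) had 36.30, 36.01 and 41.06 CPM in FBL knockdown and 78.0, 49.7 and 57.1 CPM in control. The groups did not overlap although control replicate 1 stood well above the other controls, and the fall was 1.63-fold (-0.70 ± 0.15 SE, edgeR adjusted p = 0.00407). HDAC2 had 32.8, 37.7 and 38.0 CPM in FBL knockdown and 53.3, 40.9 and 52.3 CPM in control (1.35-fold lower, -0.43 ± 0.11 SE, edgeR adjusted p = 0.0138), and its value was -0.38 without control replicate 3 (edgeR adjusted p = 0.0673). HDAC8 had 7.26, 7.14 and 6.72 CPM in FBL knockdown and 8.71, 8.62 and 8.82 CPM in control (1.24-fold lower, -0.31 ± 0.09 SE, edgeR adjusted p = 0.0267). The groups of both genes were apart, but HDAC8 lost its call without FBL knockdown replicate 2 (edgeR adjusted p = 0.0718), FBL knockdown replicate 3 (0.154) or control replicate 3 (0.0949).

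HDAC3, the deacetylase of the NCoR and SMRT corepressors, did not pass the test. It had 207, 211 and 212 CPM in FBL knockdown and 199, 180 and 201 CPM in control; the groups did not overlap, by a small margin (0.12 ± 0.08 SE, edgeR adjusted p = 0.287). Per length, HDAC3 was the most abundant class I gene in every library. It made up 78.0%, 78.0% and 76.5% of summed class I RPKM in FBL knockdown and 63.4%, 69.9% and 69.1% in control. The knockdown shares all lay above the control shares.

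Of the 4 higher deacetylases, HDAC7 and HDAC5 are of class IIa, HDAC11 is of class IV and SIRT2 is a sirtuin. HDAC7 (chr12:47782722-47833132, minus strand), a class IIa enzyme known for binding MEF2 factors in lymphoid and endothelial cells, had 173, 155 and 155 CPM in FBL knockdown and 92.9, 125 and 101 CPM in control. The groups did not overlap, and the rise was 1.51-fold (0.59 ± 0.11 SE, edgeR adjusted p = 0.00241). An antisense gene without a symbol in HDAC7 (ENSG00000268069, counts equal to 12.0% of those of HDAC7) was higher as well (0.73), as was SLC48A1, which overlaps its end on the other strand (26.3%, 0.86). HDAC5 had 83.1, 72.6 and 73.3 CPM in FBL knockdown and 50.8, 70.2 and 57.5 CPM in control. FBL knockdown replicate 2 and control replicate 2 were close, and the rise was 1.28-fold (0.36 ± 0.12 SE, edgeR adjusted p = 0.0373). The call of HDAC5 ended under 9 of 18 settings, including the omission of any library but control replicate 2 (0.25 to 0.42, edgeR adjusted p = 0.0726 to 0.129). HDAC4 had 17.17, 14.97 and 13.77 CPM in FBL knockdown and 16.7, 19.2 and 16.9 CPM in control, which overlap (-0.20 ± 0.11 SE, edgeR adjusted p = 0.169). Class IIa genes together took 22.4%, 21.1% and 20.8% of the deacetylases' summed RPKM in FBL knockdown and 14.4%, 18.7% and 15.5% in control. HDAC11, the class IV enzyme, known to remove fatty acyl groups, had 6.15, 4.81 and 4.84 CPM in FBL knockdown and 2.95, 3.59 and 3.42 CPM in control. Its groups did not overlap (1.58-fold higher, 0.66 ± 0.14 SE, edgeR adjusted p = 0.00386). Of class IIb, HDAC6, the tubulin deacetylase, had 37.2 to 40.0 CPM in FBL knockdown and 40.0 to 43.5 CPM in control, and HDAC10 was under 1 CPM, at 0.390 to 0.444 CPM in FBL knockdown and 0.407 to 0.593 CPM in control. MAPK12 overlaps HDAC10 over 5956 bases on the same strand, with 57053 counts against 255, and did not pass the test (-0.15). How reads in such overlaps were assigned is not given, so the value of HDAC10 cannot be read as low expression.

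The sirtuins, which use NAD, also split. SIRT2, mainly cytoplasmic and known for tubulin and H4K16 deacetylation (chr19:38878555-38899862, minus strand), had 128, 118 and 117 CPM in FBL knockdown and 74.2, 92.5 and 86.7 CPM in control. Its groups were apart, and the rise was 1.43-fold (0.52 ± 0.10 SE, edgeR adjusted p = 0.00212). SIRT1, a nuclear sirtuin acting on histones and on p53, had 3.81, 4.07 and 3.84 CPM in FBL knockdown and 6.05, 4.42 and 6.29 CPM in control (1.43-fold lower, -0.52 ± 0.14 SE, edgeR adjusted p = 0.0170). Control replicate 2 was close to the knockdown range, and the call ended without FBL knockdown replicate 2 (edgeR adjusted p = 0.0544), FBL knockdown replicate 3 (0.0804) or control replicate 3 (0.0829). SIRT7, the nucleolar sirtuin that deacetylates H3K18 and acts on ribosomal RNA transcription, had 25.4, 20.1 and 21.3 CPM in FBL knockdown and 24.7, 31.0 and 29.5 CPM in control (1.28-fold lower, -0.35 ± 0.12 SE, edgeR adjusted p = 0.0379). It is the 1 called member whose groups overlapped, through FBL knockdown replicate 1 and control replicate 1. Its call ended under 10 of 18 settings, among them the omission of FBL knockdown replicate 2, FBL knockdown replicate 3 or control replicate 3 (edgeR adjusted p = 0.125 to 0.196). MAFG overlaps SIRT7 on the same strand with more counts and did not pass the test (-0.18). SIRT6, an H3K9 deacetylase, had 29.3, 22.5 and 24.8 CPM in FBL knockdown and 25.2, 43.5 and 32.5 CPM in control, which overlap (-0.40 ± 0.17 SE, edgeR adjusted p = 0.0992, and -0.58 with an adjusted p of 0.00725 without control replicate 1). The mitochondrial sirtuins SIRT3, SIRT4 and SIRT5 did not pass, and SIRT4 was under 1 CPM in every library.

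Of 31 subunits of deacetylase complexes, 2 were higher (6.45%, against 15.8% of all genes) and 11 lower (35.5%, against 17.0%), with a median of -0.06. SUDS3, of the SIN3 complex, had 7.11, 8.05 and 7.64 CPM in FBL knockdown and 16.2, 14.0 and 14.99 CPM in control, a 1.98-fold fall (-0.99 ± 0.10 SE, edgeR adjusted p = 7.61e-05). MTA2, of NuRD, was 1.57-fold lower (-0.65 ± 0.09 SE, edgeR adjusted p = 0.000309). RCOR2, a CoREST scaffold, had 4.72, 4.33 and 4.17 CPM in FBL knockdown and 1.33, 2.24 and 1.74 CPM in control, a 2.49-fold rise (1.31 ± 0.17 SE, edgeR adjusted p = 0.000273). BRMS1L, of SIN3, was 1.43-fold higher (0.51 ± 0.15 SE, edgeR adjusted p = 0.0225), a call that ended without FBL knockdown replicate 2 (adjusted p = 0.102) or 3 (0.0531) or control replicate 3 (0.0629) in edgeR. The complexes thus held subunits past the threshold in both directions.

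Arginine methyltransferases had the most negative median of the 5 classes, -0.38. Of 8 members, all tested, 4 were lower (50%, against 17.0% of all genes) and 0 higher: PRMT7, PRMT6, PRMT1 and PRMT5. Each kept its call under all 18 other settings tried. They include the main enzymes of asymmetric (PRMT1), symmetric (PRMT5) and mono-methylation (PRMT7), while CARM1 did not pass.

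PRMT1, which makes most asymmetric dimethylarginine in mammalian cells and methylates H4R3 (chr19:49675786-49689029, plus strand), had 312, 241 and 267 CPM in FBL knockdown and 402, 436 and 417 CPM in control. Every knockdown library was below every control library, and the fall was 1.53-fold (-0.61 ± 0.10 SE, edgeR adjusted p = 0.00110). PRMT6, which methylates H3R2, had 18.4, 17.7 and 16.9 CPM in FBL knockdown and 27.5, 27.8 and 28.0 CPM in control (1.57-fold lower, -0.65 ± 0.08 SE, edgeR adjusted p = 0.000240). Its replicates were tight in both groups. PRMT7 had 43.2, 34.4 and 38.8 CPM in FBL knockdown and 60.8, 65.2 and 63.3 CPM in control (1.63-fold lower, -0.70 ± 0.10 SE, edgeR adjusted p = 0.000387). PRMT5 (chr14:22920511-22929585, minus strand), the symmetric enzyme that acts on Sm proteins and histones H3 and H4, had 155, 147 and 155 CPM in FBL knockdown and 226, 191 and 209 CPM in control. Its groups did not overlap (1.37-fold lower, -0.45 ± 0.09 SE, edgeR adjusted p = 0.00244). PRMT5-AS1, an antisense gene with counts equal to 54.1% of those of PRMT5, was lower by a like amount (-0.42, edgeR adjusted p = 0.00299), and without the strand setting the reads of the pair cannot be told apart.

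CARM1 (PRMT4), a coactivator enzyme that methylates H3R17, had 304, 284 and 280 CPM in FBL knockdown and 232, 293 and 254 CPM in control. Control replicate 2 fell within the knockdown range (0.15 ± 0.10 SE, edgeR adjusted p = 0.247), and without it the value was 0.25 (edgeR adjusted p = 0.0449). Summed over the 8 genes, arginine methyltransferase RPKM was 201, 172 and 180 in FBL knockdown and 226, 239 and 230 in control. CARM1 took 34.5%, 36.5% and 34.6% of that sum in FBL knockdown and 23.0%, 27.7% and 24.9% in control, whereas PRMT1 took 32.9%, 28.8% and 30.7% in FBL knockdown and 37.0%, 38.2% and 37.9% in control. CARM1 was thus the most abundant gene of the class by RPKM in every knockdown library and PRMT1 in every control library. PRMT2, PRMT3 and PRMT9 did not pass, and PRMT9 was close to 1 CPM.

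The partners of arginine methylation gave 2 higher and 2 lower of 7 (28.6% each, against 15.8% and 17.0% of all genes; median 0.01). WDR77, the obligate partner of PRMT5, was 1.29-fold lower (-0.36 ± 0.08 SE, edgeR adjusted p = 0.00476), as was CLNS1A, its adaptor to Sm proteins, also 1.29-fold (-0.37 ± 0.09 SE, edgeR adjusted p = 0.00757). BTG2, which binds PRMT1, was 1.77-fold higher (0.83 ± 0.12 SE, edgeR adjusted p = 0.000512). BTG1, its relative, was 1.34-fold higher (0.42 ± 0.11 SE, edgeR adjusted p = 0.0117), with an adjusted p of 0.0588 without FBL knockdown replicate 2.

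Among enzymes that supply or consume the cofactors of these reactions, 11 of 16 were lower (68.8%, against 17.0% of all genes) and 1 was higher (6.25%, against 15.8%), with a median of -0.41. The lower ones include MAT2A, MAT2B and AHCY of S-adenosylmethionine metabolism and NMNAT1 and NADSYN1 of NAD synthesis. IDH1, which makes 2-oxoglutarate, the cosubstrate of JmjC demethylases, had 4.93, 4.40 and 4.71 CPM in FBL knockdown and 11.6, 9.24 and 9.59 CPM in control. Its groups were far apart, a 2.17-fold fall (-1.12 ± 0.12 SE, edgeR adjusted p = 9.31e-05). ACLY, which makes nuclear and cytosolic acetyl-CoA, had 66.6, 60.03 and 58.1 CPM in FBL knockdown and 125, 114 and 110 CPM in control (1.88-fold lower, -0.91 ± 0.09 SE, edgeR adjusted p = 6.38e-05). NMNAT3, of NAD synthesis, was 1.45-fold higher (0.53 ± 0.11 SE, edgeR adjusted p = 0.00327).

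Because close relatives often share substrates, the ratio of RPKM within each library was compared for 12 pairs with 2-sided exact permutation tests, in which 3 libraries against 3 cannot give a p under 0.1. For 4 pairs the groups did not overlap: KAT2A to KAT2B (log2 ratio difference -1.31), HDAC4 to HDAC5 (-0.58) and KAT6A to KAT6B (-0.26), each lower in FBL knockdown, and CREBBP to EP300 (0.72), higher in FBL knockdown. Each had an exact p of 0.1 and an adjusted p of 0.3 over the 12 pairs. The paralogue ratio KAT2A/KAT2B ranged from -1.56 without FBL knockdown replicate 1 to -1.14 without FBL knockdown replicate 2, and was -0.81 with 0.1 added to each RPKM. HDAC1 to HDAC2 was 4.32, 3.72 and 4.21 in FBL knockdown and 5.70, 4.74 and 4.26 in control (difference -0.25, exact permutation p = 0.2), which overlap slightly. The other 7 pairs had exact p-values of at least 0.3. These include EHMT1 to EHMT2 (difference 0.07, exact permutation p = 0.4) and KMT2C to KMT2D (0.00, exact permutation p = 1). No pair could pass 0.05 in this design.

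**Figure D3:**
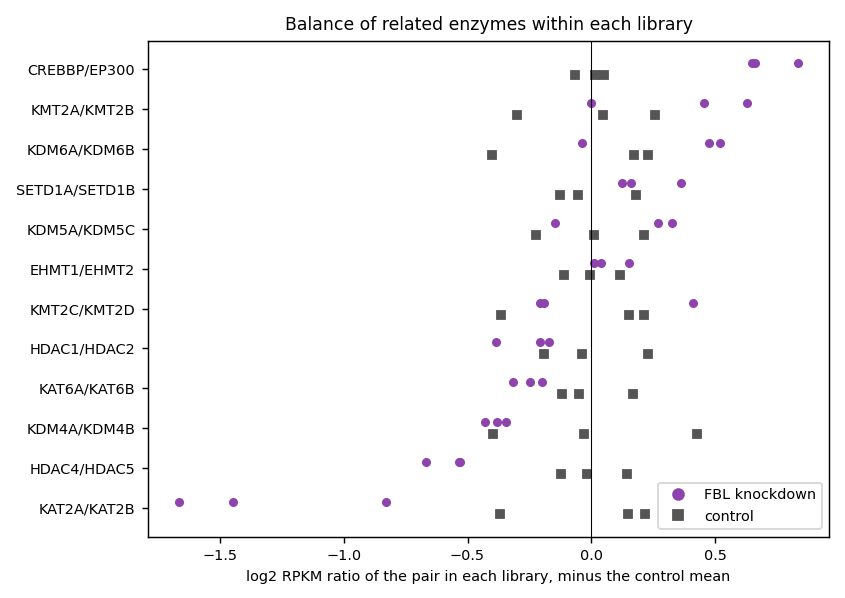
Log2 ratio of RPKM for 12 pairs of related enzymes in each library, minus the control mean of the pair (x axis), with FBL knockdown (purple circles) above control (grey squares) in each row. CREBBP/EP300 lies to the right and KAT2A/KAT2B, HDAC4/HDAC5 and KAT6A/KAT6B to the left of all control libraries; the other pairs overlap.

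The level of the members, as distinct from their change, varied with the GC content of the transcript. Over the 72 tested members, Spearman's rho between GC content of the longest transcript and mean RPKM was 0.57, against 0.25 over 18439 tested genes with a GC value. Genes are not independent replicates, and all points share the same 6 libraries, so this is a description. Median RPKM was 0.598 over the 16 members under 45% GC and 6.99 over the 14 members at 60% GC or more. KMT2C at 45.02% GC and KMT2D at 59.1% GC are an example, with 0.0714 and 7.93 RPKM over all 6 libraries. The log2 fold change showed little relation to GC content (rho 0.08 over members, 0.00 over all genes). Members lower after FBL knockdown numbered 5 of 16 under 45% GC (12.1% of all genes in that bin were lower), 3 of 17 from 45% to 50% GC (21.05%), 8 of 13 from 50% to 55% GC (22.5%), 4 of 12 from 55% to 60% GC (19.7%) and 1 of 14 at 60% GC or more (13.5%). Higher members numbered 1, 0, 0, 2 and 3 in the same bins, where 12.0%, 13.9%, 16.9%, 20.3% and 20.6% of all genes were higher. With a per-library correction for GC content, chosen after the data were seen, 12 members were higher (16.7%, against 22.6% of all genes) and 27 lower (37.5%, against 23.3%). Among them were all 6 and all 21 of the fit without it. In the whole table that correction raised the calls to 8470. Whether library preparation had a part in the levels was not tested.

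**Figure D4:**
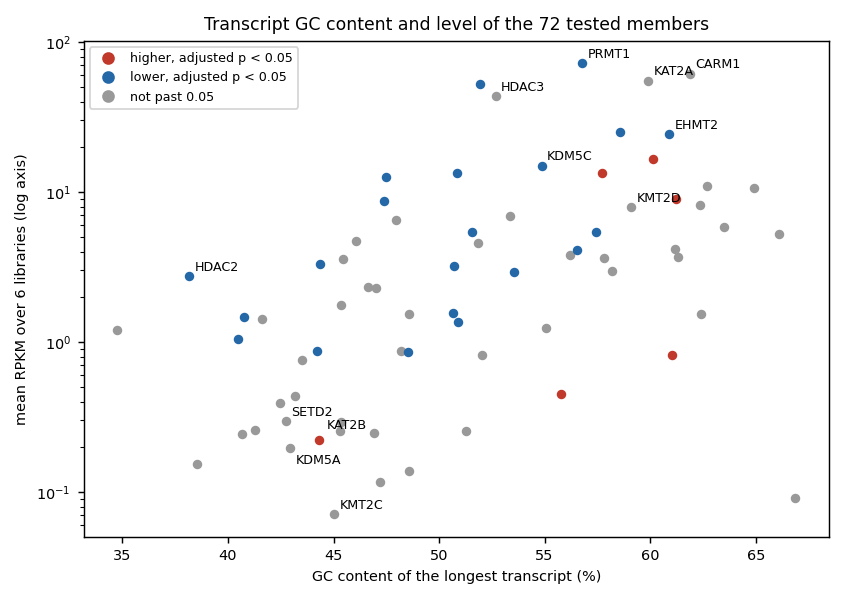
GC content of the longest transcript (x axis, %) against mean RPKM over the 6 libraries (y axis, log scale) for the 72 tested members; colours give the call at an adjusted p of 0.05 (red higher, blue lower, grey neither). Members under 45% GC have a median of 0.598 RPKM and those at 60% GC or more of 6.99 RPKM; blue points are most frequent between 50% and 55% GC.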

How the data were processed

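Messenger RNA was measured in 6 Kasumi-1 libraries. The authors deposited whole-number counts per Ensembl gene and a table of RPKM values; tools listed in the submitters' processing notes are HISAT2, featureCounts, cutadapt 1.18 and edgeR, with the build GRCh38. Which annotation was counted, on which strand, and how multiply matching reads were handled is not given in the sources used here. Recomputing the deposited RPKM from counts, gene lengths and TMM-scaled totals gave 191796 of 191796 values within a relative tolerance of 1e-06. Of the per-sample columns, 0 were left unused. Mass spectrometry named in the series' design was not analysed here.

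Counts were filtered with filterByExpr (minimum count 10, minimum total 15), which left 18486 of 31966 genes, scaled by TMM and compared on group alone with the quasi-likelihood test of edgeR 4.0.16 in R 4.3.3, with Benjamini-Hochberg adjustment over all tested genes and a threshold of 0.05. SE values come from the fold change and the F statistic, and fold changes are FBL knockdown over control. Where an adjusted p is given beside a fold change, it is from this edgeR fit unless another tool is named. Paralogue ratios used exact permutation tests in scipy 1.17.1. Gene positions and GC content came from GENCODE v29 on GRCh38 (73 of 73 members matched), and promoters from RefSeq on GRCh38.p14. Alternatives were other scalings, filters, DESeq2 1.42.0, limma 3.58.1, a replicate block, omission of each library and, added after the data were seen, a GC correction and edgeR's legacy dispersion. On data simulated for this comparison, with 200 genes changed among 18489 tested, the test recovered 74% at a 1.5-fold change and 99% at a 2-fold change, with a false share of 8.95%. In the data 6061 genes were called, so the adjusted threshold falls at another raw p and these shares do not carry over.

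The members, the 9 lists of related genes (147 genes), the pairs and the tests were chosen with earlier results of these data known. The rule for named genes took FBL, up to 4 members per class and direction that passed the threshold with the largest change, given a mean of 1 CPM or more, and KMT2A, DOT1L, EHMT2, SETD2, KDM1A, KDM6A, CREBBP, EP300, KAT6A, HDAC1, HDAC2, HDAC3, SIRT1, PRMT1, PRMT5 and CARM1. Members not tested or under 1 CPM were named by level, and each list gave up to 2 genes per direction. Fold changes of EHMT1, KDM5A, KDM5B, KDM2A, KDM4B, KAT2A, KAT7, HDAC4, HDAC8 and SIRT6, and of overlapping genes, were added after their values were seen, as were the list members named without a value.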

Additional observations from a re-analysis of the deposited data

How the results depend on the processing

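Of the 27 called members, 20 kept their call and direction in each of the 18 other settings that tested them (17 for KAT2B and HDAC11, which the stricter filter left out); KAT5, SIRT1, SIRT7, HDAC2, HDAC5, HDAC8 and EHMT1 lost theirs in at least 1. Lower members numbered 16 to 27 and higher members 4 to 12, with 12 higher under the GC correction. Of all genes, 9.07% to 23.3% were lower and 8.44% to 22.6% higher over the settings. The replicate numbers did not pair the samples (correlations of deviations from the group means -0.28, -0.20 and 0.04 for the same number). With the replicate block 3833 genes were called in all, with 5 members higher (6.94%, against 9.99% of all genes) and 16 lower (22.2%, against 10.7%). Leaving out 1 library at a time gave 3923 to 6943 called genes. SETD2 ranged from -0.32 to 0.14 and the KMT2C to KMT2D ratio from -0.20 to 0.11 over these omissions, so neither has a stable sign. The paralogue ratio KAT2A/KAT2B was -0.81 with 0.1 added to RPKM. The cause of these shifts was not tested. Over the settings, 16 of the 72 tested members, SETD2 included and none of them called, had fold changes of either sign. Samples number 3 per group, and counts of members that did not pass are no sign of equal levels. The share of small changes that the test detects in these data is not known. The simulation had 200 changed genes, against 6061 called here, so its 74% at 1.5-fold does not give that share. An overlapping gene with counts of at least 5% of the member's own was found for 26 members, 10 of them called.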
